A study of Homo sapiens with 4 samples.

Results

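The 10 genes described here encode proteins of the meiotic chromosome axis, the synaptonemal complex and meiotic recombination, and were *SYCP1*, *SYCP2*, *SYCP3*, *SYCE1*, *SYCE2*, *STAG3*, *REC8*, *SMC1B*, *HORMAD1* and *DMC1*. They were chosen by name among 25006 named genes on the array, and all of their probes were used, which gave 13 of 58201 gene probes. HML58-3 cells, a derivative of the colon cancer cell line HCT116, carried in all groups a luciferase reporter driven by a methylated marker promoter. Groups of these cells received mock treatment or 1 μM of decitabine (DAC, a cytidine analogue that depletes DNA methyltransferase 1), OR-2003 or OR-2100, both prodrugs of DAC. Drugs were added on day 1 and RNA was taken on day 5. A single one-colour array was hybridised for each condition, all 4 on 1 slide, and so no difference has a replicate check, no test was run and no p-value is given.

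In meiotic prophase, each chromosome is organised into loops along an axis that is built from meiosis-specific cohesin (*REC8*, *STAG3*, *SMC1B*), *SYCP2*, *SYCP3* and HORMA domain proteins such as *HORMAD1*. *SYCP1* then links the axes of homologous chromosomes as the transverse filament of the synaptonemal complex, with *SYCE1* and *SYCE2* in its central element, while the recombinase *DMC1* carries out strand exchange. Most somatic cells keep many genes of this kind silent, several of them with DNA methylation at CG-rich promoters, and aberrant expression in tumours is known for *SYCP1*, *SYCP3* and *HORMAD1*.

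Promoters in the RefSeq table (GRCh38.p14) were found for 9 of the 10 genes, in 11 entries. Their CG content is shown because the drugs deplete DNA methyltransferase 1 and so lower methylation at CG dinucleotides. In the 250 bases before the annotated start, the 11 entries had a median of 23 CG dinucleotides, against 11 over all 35116 promoters. The median GC content was 66.4% against 58%, and the observed over expected CG ratio was 0.88 against 0.558. The following 4 are shown 5′ to 3′ with CG dinucleotides in capitals, the first pair for genes induced by all 3 drugs, and the second pair for genes whose signal was lower in some or all drug-treated cells. They lie on the minus strand at chr12:101739463-101739712 (*SYCP3*), chr10:133568292-133568541 (*SYCE1*, the first of its entries), chr19:12919294-12919543 (*SYCE2*) and chr22:38570184-38570433 (*DMC1*).
SYCP3: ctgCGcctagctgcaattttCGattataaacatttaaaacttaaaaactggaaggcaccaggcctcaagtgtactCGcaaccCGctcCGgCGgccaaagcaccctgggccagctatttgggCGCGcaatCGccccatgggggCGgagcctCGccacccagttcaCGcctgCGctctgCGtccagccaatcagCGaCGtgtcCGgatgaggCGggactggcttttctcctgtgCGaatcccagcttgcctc
SYCE1: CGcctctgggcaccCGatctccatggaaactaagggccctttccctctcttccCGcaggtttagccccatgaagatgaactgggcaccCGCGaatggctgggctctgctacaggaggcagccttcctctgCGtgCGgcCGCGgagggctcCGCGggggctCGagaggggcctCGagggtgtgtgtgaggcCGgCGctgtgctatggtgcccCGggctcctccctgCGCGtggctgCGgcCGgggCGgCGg
SYCE2: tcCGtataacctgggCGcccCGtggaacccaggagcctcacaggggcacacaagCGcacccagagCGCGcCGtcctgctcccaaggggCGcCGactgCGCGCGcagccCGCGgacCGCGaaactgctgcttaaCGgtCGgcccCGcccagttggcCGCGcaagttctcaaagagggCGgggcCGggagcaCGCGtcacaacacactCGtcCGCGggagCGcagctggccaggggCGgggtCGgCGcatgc
DMC1: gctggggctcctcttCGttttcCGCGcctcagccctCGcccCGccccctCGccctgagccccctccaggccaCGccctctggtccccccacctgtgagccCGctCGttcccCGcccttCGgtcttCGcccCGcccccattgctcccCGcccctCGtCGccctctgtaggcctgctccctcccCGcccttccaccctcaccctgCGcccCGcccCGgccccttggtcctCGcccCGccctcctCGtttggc

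Among these 4 promoters, that of *SYCP3* had 19 CG dinucleotides, that of *SYCE1* 22, that of *DMC1* 23 and that of *SYCE2* 32. The lowest number among all entries was 8, for *SYCP1*, and the highest 33, for *SYCP2*. The letters GCGGGA, the core of an E2F motif, were searched on both strands. They occurred in 9 of the 11 entries, which belonged to 7 of the 9 genes. The share was 23.5% over all promoters and 47.6% over the 11395 promoters with 20 or more CG dinucleotides, and 7 of the 8 such entries of the meiotic genes held the letters. The promoter of *SYCP3* had GCGGGA 41 bases before the start, that of *SYCE1* 200 bases and that of *SYCE2* 39 bases before it, and those of *DMC1* and *SYCP1* had no match in this window. CACGTG, an E-box, occurred in 2 entries, against 6.34% of all promoters. These matches are a description of letters, and neither binding nor methylation was measured on these arrays.

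Signals are given as the scanner software's background-corrected intensity with the error that the software states, in the order mock, DAC, OR-2003 and OR-2100. Levels are on the log2 scale, where 0 is the 75th percentile of all gene probes on that array. Every fold and log2 difference compares these scaled levels, so that it is not the ratio of the printed signals, whose 75th percentile was 152 on the mock array and 166 to 176 on the others. Induced genes are those with a level of -1 or more with the drug and a difference of 2-fold or more over mock-treated cells, a rule taken from the study's methods, and reduced genes are the mirror case. By the brightest probe of each gene, 2 of the 10 genes, *SYCP3* and *SYCE1*, were induced by each drug and by all 3. The share over all named genes was 5.77% with DAC, 5.89% with OR-2003, 5.81% with OR-2100 and 5.27% with all 3. A count of 2 among 10 is read against this background as a description only. None of the 10 genes was reduced, where 5.96%, 6.05% and 6.82% of all named genes were. The rule for reduced genes requires a mock level of -1 or more. By the brightest probe only *SYCE2*, *STAG3* and *REC8* had such a level, so that no other member could be called reduced. By probes, 3, 3 and 4 of the 13 were induced, against 3.44%, 3.53% and 3.5% of all probes, and 3 were induced by all 3 drugs, against 3.13%, the gene added being *STAG3*. None of the 13 was reduced, where 4.03%, 4.07% and 4.49% of all probes were, and 3.41% with all 3 drugs. Among them only the probes of *SYCE2* and *REC8* and *STAG3* A_23_P145657 and A_32_P170749 had the mock level that this call requires. The median log2 difference over the 10 genes was 0.88, 1.53 and 1.46 with the drugs in this order, where that of all named genes was -0.12, -0.09 and -0.23. They include dim genes such as *SYCP2* and *SMC1B*, whose mock signals were not well above background, and the medians of the 10 genes were 0.14, 0.69 and 0.52 with values under each array's background limit raised to it, where that of all named genes was -0.13, -0.10 and -0.27.

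**Figure D1:**
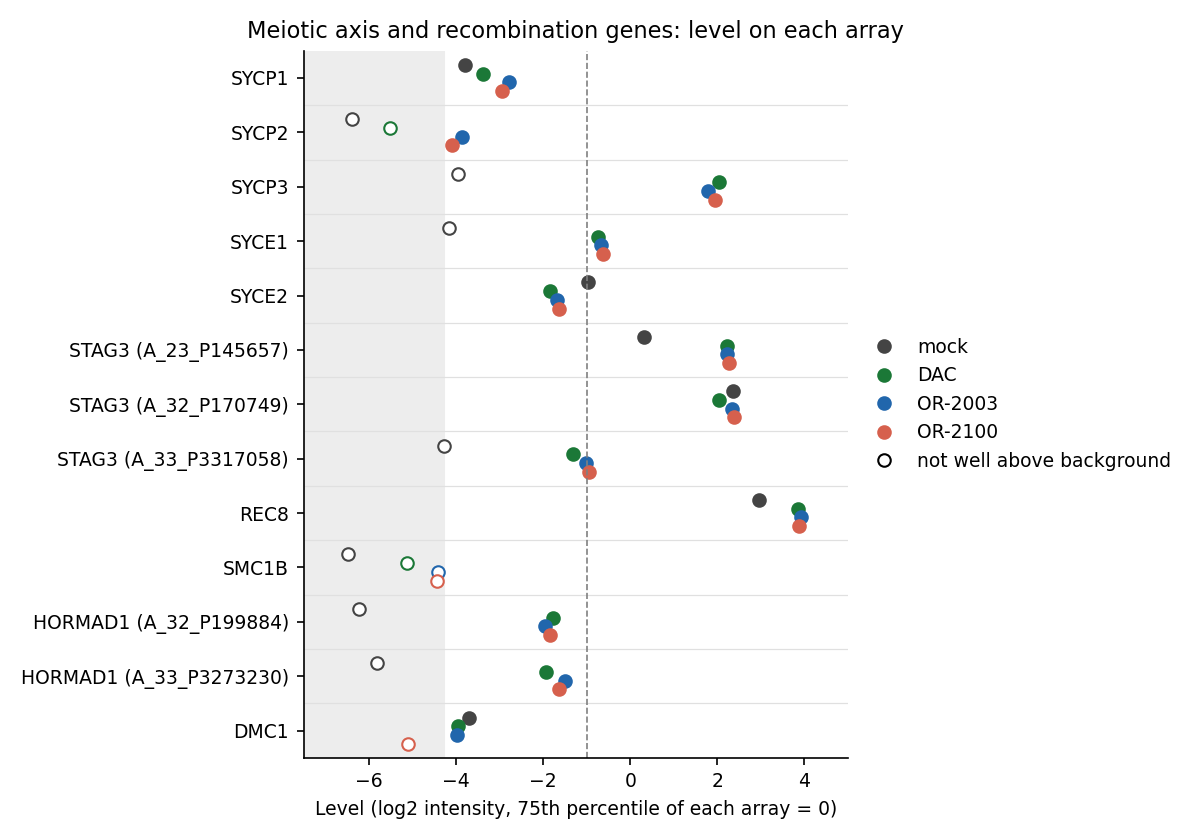
Level of every probe of the 10 genes on the 4 arrays (x axis, log2 intensity with the 75th percentile of each array at 0). Open circles are probes not well above background, the grey zone ends at the dimmest mock level that counted as well above background (-4.29), and the dashed line is the level of -1 that induction requires. *SYCP3*, *SYCE1*, both *HORMAD1* probes and 1 *STAG3* probe have an open circle for mock and filled circles with all drugs.

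More of the genes were detected after treatment than before. By their brightest probes, 5 of the 10 genes were well above background in mock-treated cells, and 8, 9 and 8 after the drugs in this order. Detection over the whole array was also lowest with mock. There, 31601 probes were well above background, against 32443 with DAC, 33282 with OR-2003 and 32545 with OR-2100. A pattern of not being well above background with mock but well above it with all 3 drugs was shown by 5 probes of 4 genes (*SYCP3*, *SYCE1*, *HORMAD1* and *STAG3*), against 4.77% of all probes. By the brightest probe it was 3 of the 10 genes, against 6.28% of named genes. For such probes a fold is a lower bound where the mock level lay under the dimmest mock level that still counted as well above background. The scaled drug level was then set against that dimmest level. For *SYCP3*, *SYCE1* and *STAG3* A_33_P3317058 the mock level was higher than it, so their fold is a plain ratio and no bound. The bounds hold only for the software's own background correction, and all member probes had a single spot. For orientation, probes with 10 spots had a median SD between spots of 0.058 to 0.066 on the log2 scale at a level of -1 or more, and of 0.16 to 0.21 when dimmer but well above background. This spread holds no difference between cultures.

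**Figure D2:**
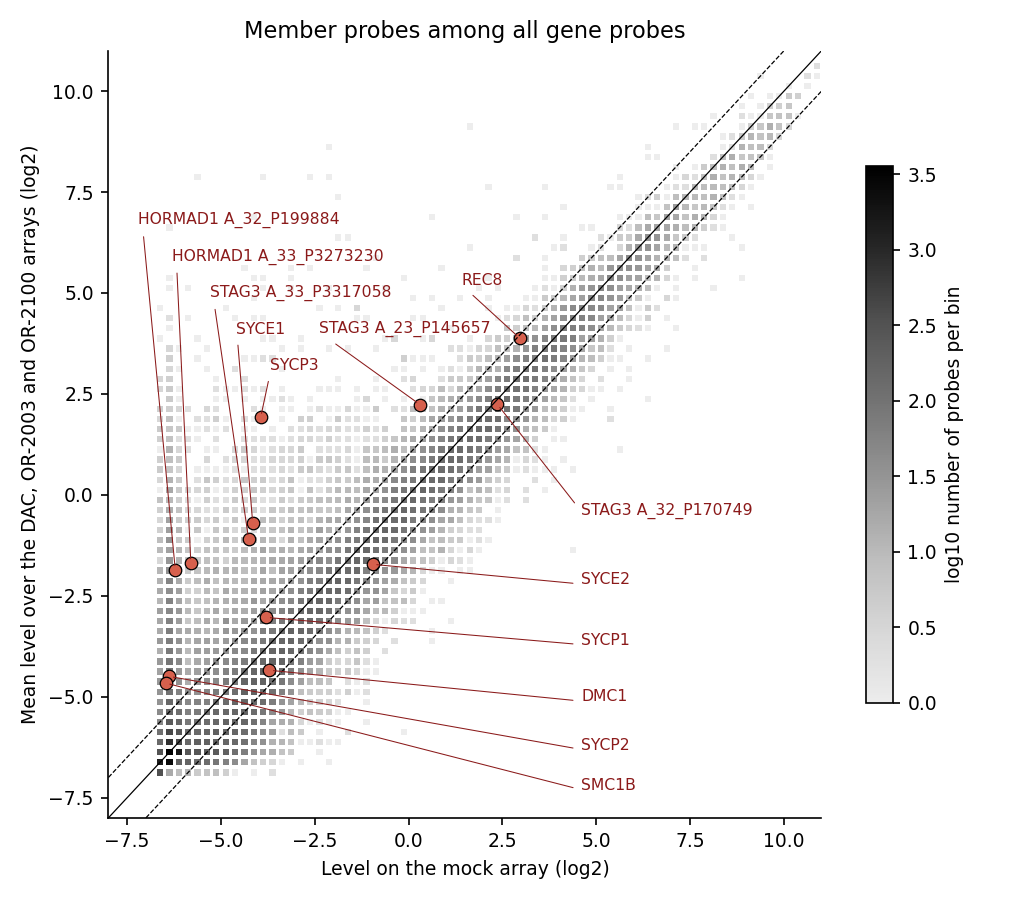
Level in mock-treated cells (x axis, log2) against the mean level over the 3 drugs (y axis, log2) for all 58201 gene probes as a grey density, with the 13 probes of the 10 genes as circles. The solid line is equality and the dashed lines are 2-fold differences. *SYCP3* lies far above the line, *STAG3* A_32_P170749 lies on it, and *SYCE2* lies below it.

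*SYCP3*, the lateral element protein that coats the axis, was induced by all 3 drugs. Its signal was 9.90 ± 2.31 with mock, 723 ± 72.3 with DAC, 570 ± 57.0 with OR-2003 and 678 ± 67.8 with OR-2100. All drug signals were far above the mock signal, which was not well above background. After scaling, the probe was 63.1-fold higher with DAC, 52.7-fold with OR-2003 and 59.3-fold with OR-2100. These are plain ratios to an undetected mock signal and no bounds. Its partner in the lateral element, *SYCP2*, was near background throughout, with signals of 1.83 ± 1.84, 3.85 ± 2.08, 11.3 ± 2.26 and 10.3 ± 2.10. It was well above background only with OR-2003 and OR-2100, at least 1.33-fold and 1.14-fold higher. As its mock signal was not well above background, the bounds set no upper limit to its fold.

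*SYCP1*, the transverse filament protein, was measured on all arrays at a low level. Its signals were 10.98 ± 2.16, 16.98 ± 2.64, 23.98 ± 3.07 and 22.98 ± 2.94. After scaling, the levels were 1.34, 2.001 and 1.81-fold that of mock. With levels between -3.38 and -2.79 the drug-treated cells stayed under the level that the rule requires.

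*SYCE1* and *SYCE2*, both of the central element, differed in opposite directions. For *SYCE1*, the signals were 8.54 ± 1.99 with mock, then 105 ± 10.7, 104 ± 10.6 and 113 ± 11.4. As plain ratios after scaling, these were 10.6, 11.2 and 11.5-fold higher. The mock signal was not well above background, and the levels with drugs (-0.75, -0.67 and -0.64) were just over the limit for induction. When the percentile was taken over bright probes only, *SYCE1* fell below this limit and *REC8* passed the 2-fold limit with every drug, so that the count stayed at 2 with another gene. For *SYCE2*, the signals were 78.4 ± 8.00, 49.2 ± 5.20, 51.9 ± 5.43 and 56.4 ± 5.84. *SYCE2* was detected in every condition, and its scaled mock level was 1.84-fold that with DAC, 1.65-fold that with OR-2003 and 1.60-fold that with OR-2100. Every drug signal lay below the mock signal by more than the stated errors.

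*HORMAD1*, which marks unsynapsed axes, has 2 probes, and both were well above background with the 3 drugs only. The probe A_32_P199884 had signals of 2.05 ± 2.05, 51.8 ± 5.65, 42.5 ± 4.75 and 49.3 ± 5.32. The probe A_33_P3273230 had 2.73 ± 1.995, 46.4 ± 5.11, 58.7 ± 6.20 and 56.8 ± 5.99. The lower bounds ran from 4.99 to 5.73-fold for the first and from 5.14 to 6.88-fold for the second. Both stayed below a level of -1, so that *HORMAD1* was not counted as induced although it was undetected in mock-treated cells.

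*STAG3*, the meiotic cohesin subunit that takes the place of *STAG1* and *STAG2*, has 3 probes for different annotated transcripts, and they did not move together. The probe A_23_P145657 was detected in every condition, with signals of 188 ± 18.9, 824 ± 82.4, 769 ± 76.9 and 844 ± 84.4, or 3.78, 3.74 and 3.88-fold higher after scaling. The probe A_33_P3317058 was not well above background with mock (7.92 ± 2.13) and had signals of 71.4 ± 7.45, 82.2 ± 8.46 and 91.2 ± 9.32 with the drugs. As plain ratios after scaling, these were 7.79, 9.51 and 9.98-fold higher. The brightest probe, A_32_P170749, had 783 ± 78.4, 719 ± 71.9, 839 ± 83.9 and 909 ± 90.9, with log2 differences of -0.33, -0.03 and 0.01. The genes *STAG3L2* and *STAG3L4*, near-identical copies of parts of *STAG3* that were added after values had been seen, had log2 differences of -0.45, -0.23 and -0.15 and of -1.11, -0.95 and -1.09. Which transcripts each *STAG3* probe takes up was not tested, and the value of the gene is uncertain for this reason.

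*REC8*, the kleisin subunit of meiotic cohesin, was already well above background in mock-treated cells. Its signals were 1183 ± 118, 2562 ± 256, 2522 ± 252 and 2556 ± 256, or 1.87, 1.95 and 1.87-fold higher after scaling. The 3 drug signals differed by less than their stated errors and lay above the mock signal, and the scaled levels were just short of the 2-fold limit. *SMC1B*, the meiotic partner of *SMC3*, was not well above background on any array, with signals of 1.72 ± 1.73, 5.04 ± 1.88, 7.80 ± 1.88 and 8.06 ± 1.83. No fold is given for it.

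*DMC1*, the meiotic strand exchange protein, was well above background with mock, DAC and OR-2003, and was not higher with any drug. Its signals were 11.6 ± 2.10, 11.4 ± 2.28, 10.5 ± 2.16 and 5.15 ± 1.85. The first 3 were barely over background and lay within their stated errors of one another. With OR-2100 the probe was not well above background, and was at least 1.79-fold lower than with mock.

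Because DAC and its prodrugs were given at the same dose and time, their signals can be set side by side. For probes at a level of -1 or more, the central 95% of all probes differed by -0.22 to 0.24 (log2) between OR-2003 and DAC, by -0.29 to 0.33 between OR-2100 and DAC, and by -0.30 to 0.32 between OR-2100 and OR-2003. For dimmer probes well above background, the same ranges were -0.51 to 0.66, -0.68 to 0.65 and -0.82 to 0.62. Of the meiotic probes that were well above background in both members of a pair, 2 of 11, 1 of 10 and 0 of 11 lay outside these ranges. With OR-2003, *SYCP3* was lower than with DAC by a log2 difference of -0.26, and *STAG3* A_32_P170749 was higher by 0.31. The same *STAG3* probe was higher by 0.34 with OR-2100 than with DAC. With 1 array each, these ranges describe the spread of probes and are no test of the compounds.

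Mitotic counterparts of the meiotic genes were lower or little different. None of the 5 was induced by any drug, where 5.77%, 5.89% and 5.81% of named genes were. None was reduced, where 5.96%, 6.05% and 6.82% were, and *STAG1* had too low a mock level to be called reduced. The list median was -0.13, -0.28 and -0.39 for the drugs in the same order, beside -0.12, -0.09 and -0.23 for all named genes. *RAD21*, the mitotic kleisin, had log2 differences of -0.28, -0.32 and -0.50 beside 0.90, 0.97 and 0.91 for *REC8*. *STAG2* was at -0.84, -0.95 and -0.83 by its brightest of 3 probes, and *STAG1* at -0.06, -0.28 and -0.39. *SMC1A*, by its brightest of 3 probes, was at -0.01, -0.01 and -0.16, and *SMC3*, shared by mitotic and meiotic cohesin, at -0.13, -0.13 and -0.17. The signs for *SMC1A* and *SMC3* with every drug, and for *STAG1* with DAC, turned with the scaling. Of 12 genes for loading, release and maintenance of cohesin, none was induced by any drug, where 5.77%, 5.89% and 5.81% of named genes were. None was reduced by DAC or OR-2003, and 1 was reduced by OR-2100 (*PDS5B*, at -1.22), where 5.96%, 6.05% and 6.82% of named genes were.

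**Figure D3:**
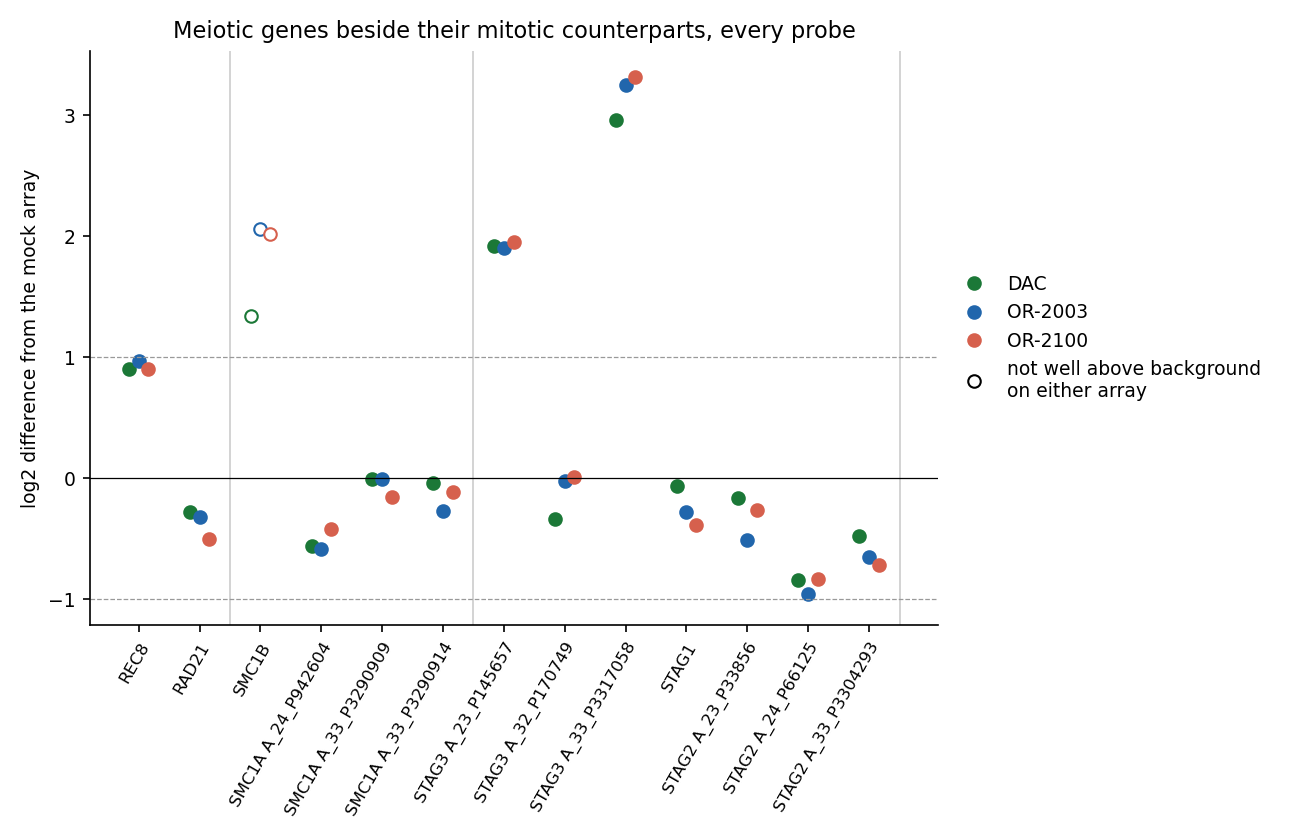
log2 difference from mock-treated cells (y axis) for every probe of *REC8*, *SMC1B* and *STAG3* beside the probes of their mitotic counterparts, by drug. Dashed lines are 2-fold differences and open circles are probes not well above background on either array. The points of *RAD21*, *STAG1*, *STAG2* and *SMC1A* lie between -0.95 and -0.01, and *REC8* lies just under the upper dashed line.

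Other genes of meiosis were listed by role. As these lists were chosen with earlier results of these data known, their counts are a description only. Of 57 such genes named on the array, each of DAC and OR-2003 induced 11, OR-2100 induced 12, and 11 were induced by all 3, against 5.27% of named genes. The gene added with OR-2100 was *BRME1*, a recombination factor whose log2 differences of 1.00, 0.93 and 1.01 straddled the 2-fold limit. There were 5, 5 and 4 reduced, and 4 were reduced by all 3, against 5.21%. Not well above background with mock but so with all 3 drugs were 11, against 6.28% of named genes, and *MEIKIN*, *REC114*, *SPATA22*, *STRA8* and *MEIOC* were in this count and in that of induced genes. A count of 12 were not well above background on any array, among them *SPO11*, which makes the meiotic double-strand breaks, and *PRDM9*, which places them. The median log2 difference of the 57 was 0.48, 0.45 and 0.25, and 0.028, -0.056 and -0.091 with low values raised to the background limit.

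Of 10 genes for meiotic entry, 4 were induced by all 3 drugs. The list median was 3.46, 3.36 and 3.57, and 2.68, 2.51 and 2.80 with low values raised to the background limit. *SOHLH1*, a germ cell transcription factor, had log2 differences of 7.56, 7.53 and 7.54, and *RBM46*, an RNA-binding protein of germ cells, 4.63, 4.81 and 4.62. *STRA8*, the retinoic acid target that starts the meiotic programme, was at least 19.3, 18.8 and 23.5-fold higher. *MEIOC*, which stabilises that programme, was at least 24.0, 21.0 and 23.5-fold higher. These bounds hold only for the software's own background correction. Over the scalings and corrections tried, the lowest log2 differences were 1.73, 1.75 and 1.90 for *STRA8* and 2.18, 2.05 and 2.13 for *MEIOC*. In this list *TCFL5*, a transcription factor of spermatogenesis, was reduced, at -1.76, -1.70 and -1.80. Entry genes therefore lay on both sides.

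Of 23 genes for strand exchange and crossover, 4 were induced by all 3 drugs. *TEX11*, a crossover factor, had log2 differences of 5.10, 5.18 and 4.98. *MEIOB* and *SPATA22* bind single-stranded DNA as partners. *MEIOB* was at 4.30, 4.42 and 4.59, and *SPATA22* was at least 11.4, 9.84 and 10.5-fold higher, so that both partners were induced. *PRR19*, a crossover factor, was at 3.59, 3.57 and 3.52. The crossover genes *MLH3* (-1.16, -1.29 and -1.03) and *CCNB1IP1* (-1.15, -1.22 and -1.17) were reduced by all 3. Of 9 genes for double-strand breaks, 2 were induced, both of which act in the machinery around *SPO11*: *MEI1* at 2.74, 2.75 and 2.97, and *REC114* at least 13.0, 12.6 and 10.2-fold. In the other direction, *ANKRD31* was well above background with mock only, by its brightest probe. Its log2 differences were -1.62, -1.02 and -0.98, from a mock level of -4.04 near the background limit. Of 7 other genes of the axis and synaptonemal complex, only *MEIKIN*, a meiotic kinetochore factor, was induced, at least 16.7, 16.3 and 17.3-fold. The bounds in this paragraph hold only for the software's own background correction. Over the scalings and corrections tried, the lowest log2 differences of *SPATA22* were 1.21, 1.08 and 1.09. Those of *REC114* were 1.42, 1.43 and 1.19, and those of *MEIKIN* 1.90, 1.86 and 1.86. Of 8 genes for telomere attachment, 0 were induced by all 3 drugs and *SUN2*, an inner nuclear membrane protein also used in somatic cells, was reduced, at -1.23, -1.04 and -1.25.

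**Figure D4:**
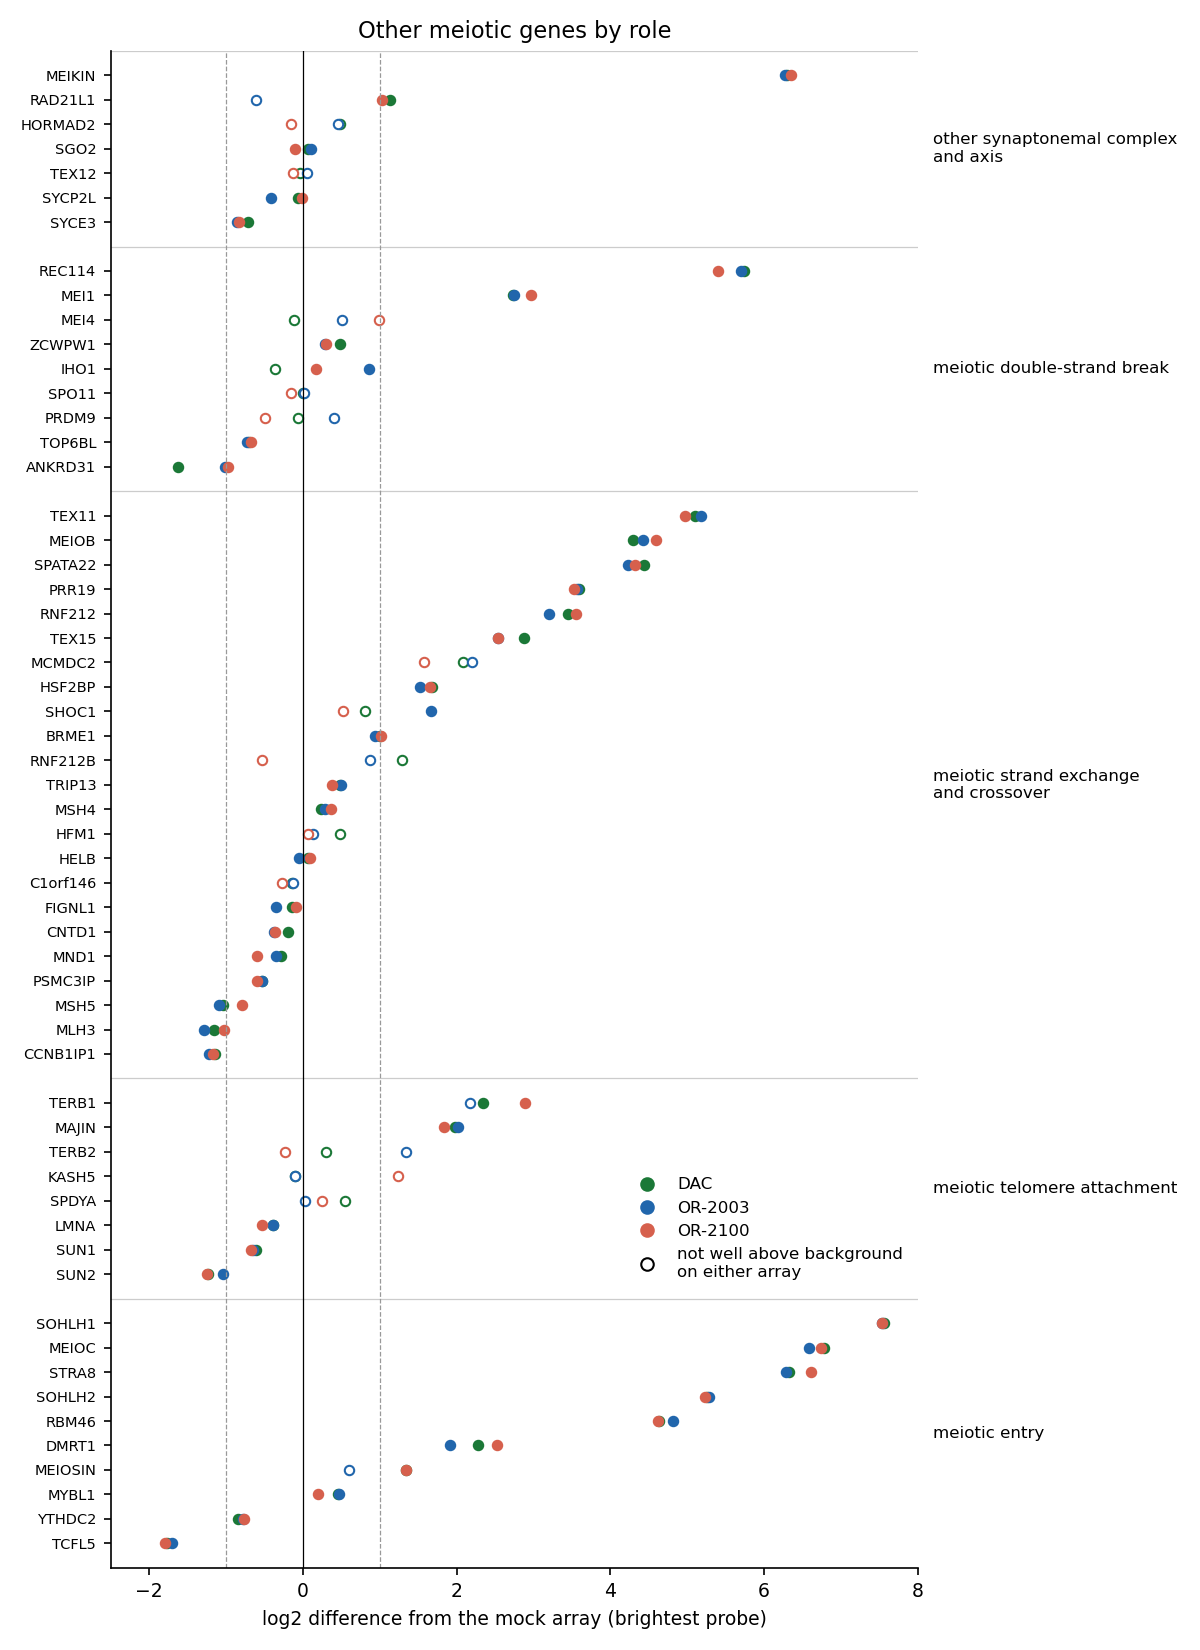
log2 difference from mock-treated cells (x axis) by the brightest probe of each of 57 other meiotic genes, grouped by role, with a point for each drug. Open circles are probes not well above background on either array, and dashed lines are 2-fold differences. *SOHLH1*, *MEIOC*, *STRA8* and *MEIKIN* lie farthest to the right, and *TCFL5* and *ANKRD31* reach farthest to the left. Differences against an undetected mock signal are not bounds.

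Promoters were in the RefSeq table for 10 of the 11 induced genes. Their 12 entries had a median of 15 CG dinucleotides, beside 23 for the 11 entries of the 10 genes, and 3 held GCGGGA. For 48 of the 57 genes there were 63 entries, with a median of 19, of which 23 held the letters. No share was tested.

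Repressors that keep germline genes silent in somatic cells, such as *E2F6*, *MGA* and *PCGF6*, formed a list of 14 genes, all well above background on all arrays. None was induced by all 3 drugs, against 5.27% of named genes, and none was reduced by all 3, against 5.21%. In a list of this size such counts are a description only. *CBX3*, a heterochromatin protein, was induced by DAC (log2 difference 1.05) and OR-2003 (1.00) and was at 0.76 with OR-2100. The list median was -0.27, -0.18 and -0.23, beside -0.12, -0.09 and -0.23 for all named genes.

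Markers of cell types were read beside these results. Of 11 epithelial markers, 10 were well above background with mock and 11 with each drug, and 6 were reduced by all 3 drugs. Over all named genes, 5.21% were reduced and 5.27% induced by all 3. The median log2 difference of the 11 was -1.09, -1.18 and -1.15. Their summed linear level (each array's 75th percentile set to 1) was between 1593 and 1750. As the brightest markers weigh most in this sum, it does not show the fall of the 6. Of 8 fibroblast markers, 2 were well above background with mock and 6 with each drug, 1 was induced (*THY1*), and the summed level was 2.28 with mock and 10.1 to 10.5 with drugs. Of 7 leukocyte markers, 5 were named on the array, 1 was induced by all 3 drugs (*CD14*), and the summed level was 0.793 with mock and 1.34 to 1.38 with drugs. The medians of 10 housekeeping genes were -0.16, -0.14 and -0.27. Of the genes that the study followed as signs of the response, *UCHL1* was at least 1907, 2126 and 2007-fold higher. Its bounds hold only for the software's own background correction. *SFRP1*, measured on all arrays, was 9.35, 8.65 and 10.5-fold higher. The part of the marker differences in the results on meiotic genes was not tested. In bulk RNA, a change in the number of expressing cells and a change in RNA per cell cannot be told apart.

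The probe with the largest mean difference among member probes well above background on all arrays was *STAG3* A_23_P145657. The named genes whose values over the 4 arrays lay nearest to it, each centred on its mean, were *IGFBP3*, at a root mean square distance of 0.015 on the log2 scale, *SNORD43* at 0.016 and *CORO1A* at 0.017. Likeness over 4 arrays is a description only.

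The size of the differences depended on how background was removed. With normexp correction and an offset of 50, the log2 differences over mock were 3.25, 2.96 and 3.08 for *SYCP3*, and 1.19, 1.25 and 1.24 for *SYCE1*. Those of *HORMAD1* A_33_P3273230 fell to 0.47, 0.78 and 0.66 and those of *STAG3* A_33_P3317058 to 0.76, 0.91 and 0.94, all less than 2-fold. *STAG3* A_23_P145657, a brighter probe, stayed at 1.64, 1.65 and 1.68, and *REC8* at 0.85, 0.92 and 0.92. The directions of *SYCP3*, *SYCE1*, *HORMAD1*, *REC8*, *SYCE2*, *DMC1* and of both *STAG3* probes that were higher with drugs were the same under all 8 alternative scalings and corrections. The sign turned in at least 1 of them for *SMC1B* with all drugs, for *SYCP1* and *SYCP2* with DAC, and for *STAG3* A_32_P170749 with OR-2003 and OR-2100.

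**Figure D5:**
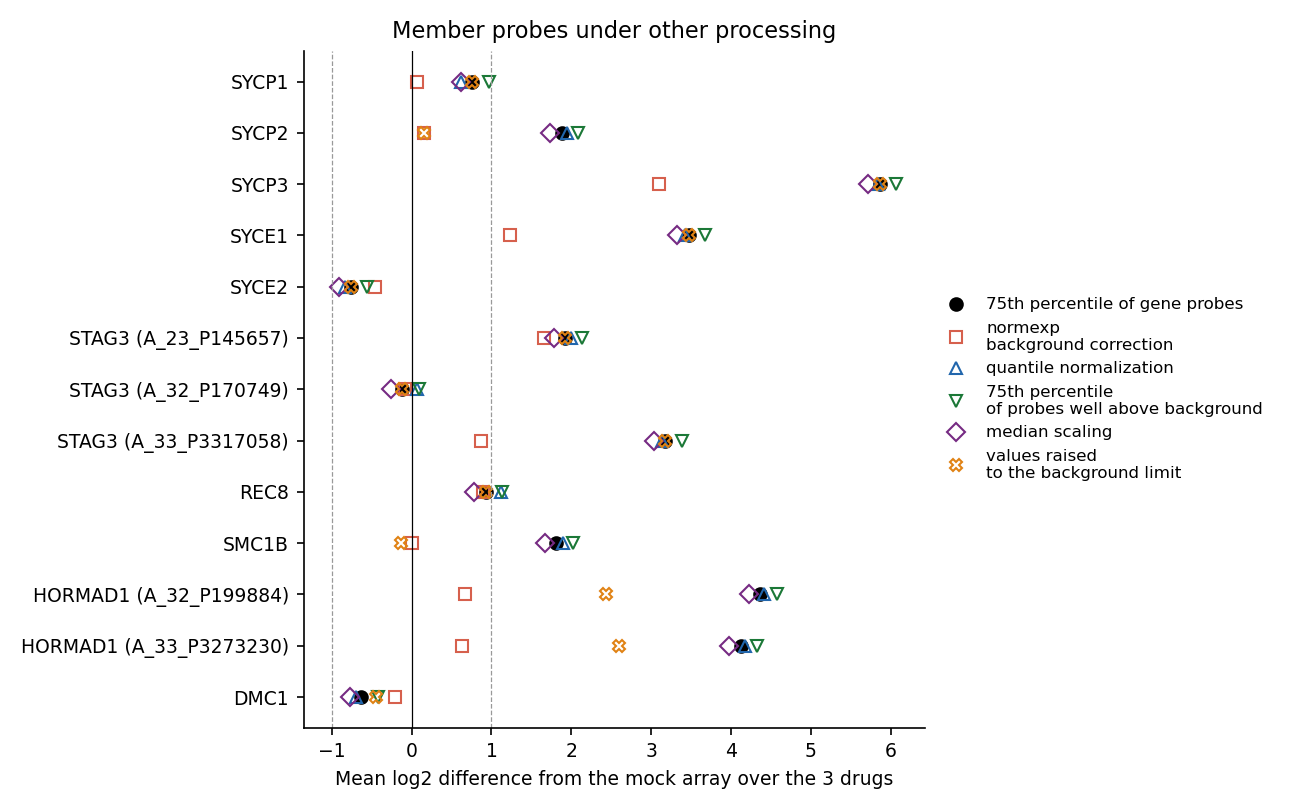
Mean log2 difference over the 3 drugs (x axis) for each probe of the 10 genes under the reported processing (filled circle) and 5 alternatives (open symbols). Dashed lines are 2-fold differences. Normexp correction moves dim probes such as *HORMAD1* to below the 2-fold line and leaves *SYCP3* and *SYCE1* above it.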

How the data were processed

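Expression was measured in 4 samples of HML58-3 cells, 1 for each treatment. Per the file headers, the authors deposited Feature Extraction 12.1.0.3 output, which holds the background-corrected intensity of each spot, its error, the median signal and background, and flags for outliers, saturation and signal well above background. The deposited series table held the same intensity values for all 62976 spots. Array annotation in the headers refers to hg19, and no gene coordinates are given. Methylation arrays were not analysed here.

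Control spots and marked gene spots (52 to 98 per array, none of them of the 10 genes) were left out, log2 intensity was averaged over the spots of a probe, and the 75th percentile of gene probes was set to 0. No spot was saturated, and probes well above background numbered from 31601 to 33282 per array. Detection of a probe required the software's flag for signal well above background on over 0.5 of the spots kept. Accessions named 34892 probes through a RefSeq table of GRCh38.p14, from which the promoters also came. Groups followed the labels. Since each had 1 array, the number of arrays limits the precision and no test was run.

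The members and the lists (other meiotic genes by role, mitotic counterparts, cohesin regulators, repressors, markers, housekeeping genes) were chosen with earlier results of these data known. From the mitotic counterparts and the leukocyte markers 1 gene each is not reported here. Named were all members, all mitotic counterparts, of the other lists genes induced or reduced by all 3 drugs (at most 8 per list), 3 genes nearest to the leading member, *UCHL1* and *SFRP1*. *BRME1*, *CBX3*, *PDS5B*, *E2F6*, *MGA*, *PCGF6*, *SPO11*, *PRDM9*, *ANKRD31*, *STAG3L2* and *STAG3L4* fall outside this rule and were named after their values were seen. Epithelial markers reduced by all 3 drugs are given as a count. There were 14 alternatives of processing. Normexp was run on the median signal of a spot, as the mean signal was not used here, and a planned comparison of protein sequences was not run. The counting rules were run on simulated data, made from the mock array with its 58201 probes. There, 200 of 200 induced and 200 of 200 reduced probes were recovered, and 0 of the unchanged ones scored were called. The rule for reduced probes requires a mock level of -1 or more, so all 200 reduced probes had such a level. For probes dimmer than this with mock, such as those of *SYCP3* and *SYCE1*, neither recovery nor wrong calls were shown. The simulated data came from a single array and hold no difference between cultures. How often the rules call wrongly on the measured arrays was not tested. Python 3.11.15, numpy 2.4.6, pandas 2.3.3, matplotlib 3.10.9, R 4.3.3 and limma 3.58.1 were used.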

Additional observations from a re-analysis of the deposited data

Results flagged for a closer look

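The brightest *STAG3* probe, A_32_P170749, had log2 differences of opposite sign between drugs, at -0.33 with DAC, -0.027 with OR-2003 and 0.0082 with OR-2100. With 1 array per drug, the difference was not tested. The sign with OR-2003 and OR-2100 turned with the scaling, from -0.25 to 0.17 and from -0.08 to 0.23, while that with DAC lay between -0.45 and -0.14 under every scaling and correction tried.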

How the results depend on the processing

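No paired analysis was possible because a condition is a single array without any test. The genes *SYCP3* and *SYCE1* were induced by all 3 drugs under normexp correction, quantile normalization, median scaling, the series table and the other settings of spots and low values, and *REC8* joined them under quantile normalization. When the percentile was taken over bright probes (those well above background on all arrays), *SYCP3* and *REC8* were induced and *SYCE1* was not, and other meiotic genes induced by all 3 drugs numbered 4 in place of 11. With median scaling, which lowers each array's zero and so the level that the rule requires, the 10 genes gave 4 induced with OR-2003 and 5 with OR-2100, 1 reduced with DAC (*SYCE2*) and 1 with OR-2100 (*DMC1*), and 18 other meiotic genes were induced. A level threshold of 0 left 1 gene, *SYCP3*, with each drug and with all 3, and 7 other meiotic genes. Without a level threshold, 4 genes were induced with DAC, 6 with OR-2003, 5 with OR-2100 and 4 with all 3. Under the same rule, 1 was reduced with OR-2100 (*DMC1*), and 19 other meiotic genes were induced. Each of these counts of induced genes among the 10 includes *SMC1B*, which was not well above background on any array. Where detection with all 3 drugs was required too, 3 of the 10 genes and 17 other meiotic genes were 2-fold higher with all 3. No share over all named genes is given for these other settings, so the counts under them are a description of the rule only. Scaling shifted all probes together, by a median of 0.20, 0.20 and 0.22 where bright probes set the percentile and -0.12, -0.22 and -0.09 under median scaling. Of the 39 differences of member probes, 31 were counted as moved under normexp, and all 39 where bright probes set the percentile. The cut-off for this count was larger than the spread between spots, which was 0.114 on the log2 scale. The number was 13 under median scaling, 11 under quantile normalization and 13 with values raised to the background limit. Signal over background limits *SYCP1*, *SYCP2*, *SMC1B* and *DMC1*, whose values lie at or near the background limit.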
